A study of Homo sapiens with 12 samples.

Results

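The 9 genes described here encode MYC, its partner MAX and some of the other proteins of the same dimerization network (MXD1, MXD3, MXD4, MXI1, MNT, MLX and MLXIP). They were taken by gene symbol from the 20531 genes listed for each sample, and all 9 were among the 14012 that reached 10 counts in 1 sample or more. MYC is a basic helix-loop-helix leucine zipper factor that binds the E-box, CACGTG, only as a dimer with MAX, and at its targets it recruits histone acetyltransferase and helicase complexes that raise transcription of genes for ribosome production, nucleotide and polyamine synthesis and cell growth. MAX also pairs with MXD1, MXD3, MXD4, MXI1 and MNT, which recruit SIN3 and histone deacetylases to the same sites and lower transcription, so these 5 are called antagonists below. MLX pairs with MLXIP (MondoA), a factor that responds to glucose 6-phosphate, and with some of the antagonists. In HER2+ breast cancer cells, MYC transcription is known to depend on signaling below the receptor.

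The cells were SKBR-3, a HER2+ breast carcinoma line with amplified ERBB2, and polyA RNA was measured by RNAseq. Cells received either a non-targeting (NT) siRNA control pool or a FOXA1 siRNA pool for 48 h, and then either DMSO or 300 nM lapatinib, an inhibitor of the HER2 and EGFR kinases, for 24 h. The 4 groups (NT siRNA, DMSO; NT siRNA, lapatinib; FOXA1 siRNA, DMSO; FOXA1 siRNA, lapatinib) had 3 replicates each, all in the same line and medium, and the labels do not say whether replicates were separate cultures, so that p-values measure the spread between these samples, which may be technical. Knockdown was by a pool with no rescue and no single siRNA, so effects of the pool other than on FOXA1 cannot be told apart from loss of FOXA1.

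Libraries held 25749578 to 32271850 expected counts. The FOXA1 mRNA fell with its siRNA by 2.63 on the log2 scale in DMSO and by 2.69 in lapatinib, in every replicate. ERBB2, KRT8, KRT18 and KRT19 were each at 2062.05 TPM or more in all 12 libraries (TPM, a level per transcript length scaled to the library), while the epithelial cadherin CDH1 was at no more than 0.25 TPM and the hormone receptors ESR1 and PGR at no more than 0.98 TPM. Of the basal, fibroblast, leukocyte and endothelial markers (11 genes), CD68 (14.8 to 42.54 TPM), CDH5 (3.23 to 11.78 TPM) and COL1A1 (2.74 to 5.58 TPM) were above 2 TPM, and KRT5 was at no more than 1.52 TPM. With lapatinib in NT siRNA cells CD68 rose (log2 fold change 0.89) and CDH5 (-0.97) and COL1A1 (-0.65) fell, and in FOXA1 siRNA cells CD68 rose (0.65) and COL1A1 fell (-0.33). FOXA1 siRNA raised KRT5 in both drugs (2.62 in DMSO, 3.45 in lapatinib) and CDH5 in lapatinib (1.08). KRT5 in lapatinib and KRT14 in both drugs reached 10 counts only in FOXA1 siRNA libraries, so the filter admitted them only where they were high. A count of raised basal markers is therefore not set beside all genes. KRT14 was at no more than 0.44 TPM. FOXA1 siRNA lowered 3 of 6 tested luminal markers in DMSO and 6 of 7 in lapatinib (3 and 5 without replicate 2). Those 6 include CDH1, which reached the count filter only through NT siRNA libraries with lapatinib, so its fall there carries no weight. Of all genes, 21.3% and 22.2% were called lower. The part of these markers in the results below was not tested. Replicate 2 stood apart in all 4 groups: the chi-square per degree of freedom between the gene counts of 2 replicates was 12.1 to 17.6 for pairs with replicate 2 and 3.62 to 5.68 for replicates 1 and 3. Most counts of called genes are therefore also given without replicate 2 of every group. Every share of all genes given here comes from the fit with all replicates and no block on replicate number. A gene was called where its adjusted p was under 0.05 in the quasi-likelihood test of edgeR, with the Benjamini-Hochberg method applied over all genes tested and no minimum fold, and every log2 fold change below comes from that test. In bulk RNA, fewer cells of a type and less RNA per cell cannot be told apart.

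In GRCh38.p14 (RefSeq), MYC (Entrez 4609) lies at chr8:127735434-127742951, MAX (4149) at chr14:65006101-65102695, MLX (6945) at chr17:42567100-42573203 and MLXIP (22877) at chr12:122078756-122147344. MXD1 (4084) lies at chr2:69915109-69942945, MXD3 (83463) at chr5:177305499-177312752, MXD4 (10608) at chr4:2247432-2262109, MXI1 (4601) at chr10:110207605-110287365 and MNT (4335) at chr17:2384073-2401060. The values are sums over each gene's transcripts, so exons and UTRs are not separated. MXD3 had fractional expected counts in all 12 samples and MLX in 11, which is a sign of reads shared with other genes, and the other 7 members had whole counts.

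MYC was the most abundant member in each group, and its mRNA differed with both siRNA and drug. In NT siRNA cells, lapatinib lowered MYC to 0.709 of the DMSO level, whereas in FOXA1 siRNA cells the level did not differ detectably between the drugs. FOXA1 siRNA raised MYC 1.71-fold in DMSO and 2.42-fold in lapatinib. Normalized counts of MYC were 6073, 6275 and 6137 in NT siRNA cells with DMSO (replicates 1 to 3) and 4215, 4787 and 3913 in NT siRNA cells with lapatinib. With FOXA1 siRNA they were 10140, 10330 and 10880 with DMSO and 10420, 10650 and 10310 with lapatinib. Every FOXA1 siRNA library thus had more MYC than every NT siRNA library, and the drug groups separated within NT siRNA only. The log2 fold change for lapatinib was -0.50 (standard error 0.0728, adjusted p = 0.0005) with NT siRNA and 0.01 (95% confidence interval -0.085 to 0.104, adjusted p = 0.856) with FOXA1 siRNA. Those responses differed by 0.52 (standard error 0.086, adjusted p = 0.00457), and each of the 12 fits that left out 1 library kept that call. For FOXA1 siRNA the log2 fold change was 0.78 (standard error 0.043) in DMSO and 1.27 (standard error 0.0712) in lapatinib (adjusted p = 1.42e-05 and 9.94e-06). Comparisons on the same group share its libraries, such as NT siRNA with DMSO, which enters both the lapatinib and the FOXA1 siRNA contrast.

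**Figure D1:**
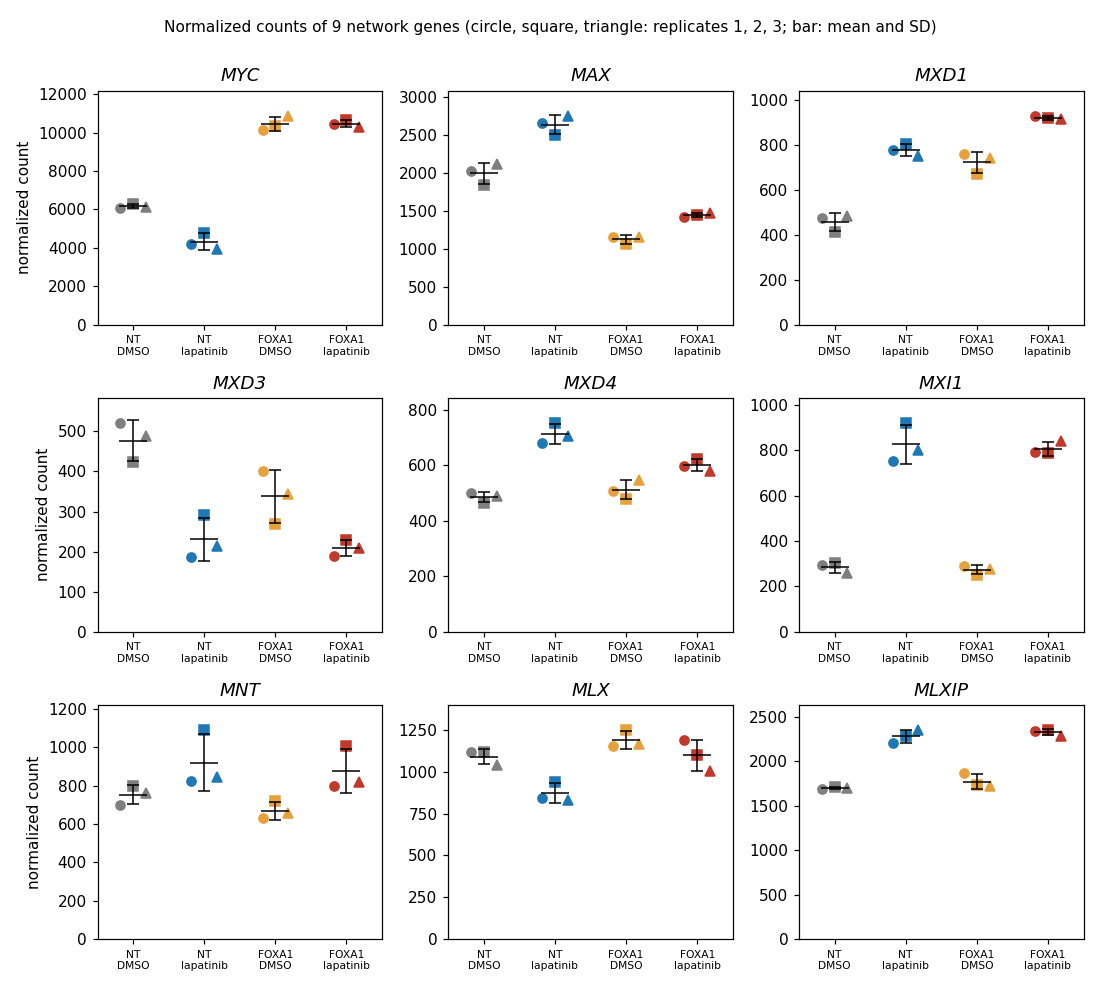
Normalized counts (y axis, from 0) of the 9 network genes in the 4 groups (x axis), with circles, squares and triangles for replicates 1, 2 and 3 and a black bar for the mean and SD of 3. MYC lay between 10140 and 10880 in the 6 FOXA1 siRNA libraries and between 3913 and 6275 in the 6 NT siRNA libraries, while MXI1 separated the libraries by drug.

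MAX, the partner that MYC and the antagonists share, moved in the opposite direction to MYC in 3 of the 4 comparisons. Its normalized counts were 2024, 1847 and 2122 in NT siRNA cells with DMSO and 2656, 2500 and 2757 with lapatinib. They were 1160, 1060 and 1160 in FOXA1 siRNA cells with DMSO and 1416, 1443 and 1468 with lapatinib. All 6 FOXA1 siRNA libraries were below all 6 NT siRNA libraries, and within each siRNA the lapatinib libraries were above those with DMSO. MAX rose with lapatinib by 0.42 on the log2 scale in NT siRNA cells (standard error 0.0661, adjusted p = 0.000713) and by 0.36 in FOXA1 siRNA cells (standard error 0.0569, adjusted p = 0.000778). The responses differed by -0.04 (95% confidence interval -0.23 to 0.15, adjusted p = 0.837). FOXA1 siRNA left 0.569 of the MAX mRNA in DMSO and 0.544 in lapatinib (log2 fold changes -0.81 and -0.88, adjusted p = 6.75e-05 and 1.52e-05).

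Of the 9 members, the antagonist MXI1 rose most with lapatinib. To show what lies before their starts, the RefSeq promoter windows (250 bases before to 50 after each start, GRCh38.p14), found for 8 of the 9 members (11 windows, MYC without one), were searched on both strands for the E-box CACGTG and for 2 forms of the forkhead core letters, GTAAACA and, separately, GTCAACA. Of all 35116 windows, 7.26% held CACGTG, 3.42% GTAAACA and 2.32% GTCAACA. MXI1 has 3 starts with a window, of which start 2 held GTAAACA on the reverse strand at positions -151 to -145 and start 3 held it on the forward strand at -2 to 5 (counting the first transcribed base as 1). MXD4 held CACGTG at -238 to -233 and GTCAACA at -163 to -157, MNT held CACGTG at -193 to -188 and MLX at -50 to -45. MXI1 start 1, both MAX starts, MXD1, MXD3 and MLXIP held none of these letters in their windows. RNAseq measures no binding at such letters, and any part of them in the changes of these genes was not tested. The stretches below are given for the genes with a match, 5′ to 3′ on the gene's strand, with the matching letters in capitals: 250 bases before MXI1 start 2 (chr10:110209981-110210230, plus strand), 30 around start 3 (chr10:110225976-110226005, plus strand), 250 before the MXD4 start (chr4:2262110-2262359, minus strand) and 30 around the E-box of MNT (chr17:2401236-2401265, minus strand) and of MLX (chr17:42567038-42567067, plus strand).
MXI1, start 2: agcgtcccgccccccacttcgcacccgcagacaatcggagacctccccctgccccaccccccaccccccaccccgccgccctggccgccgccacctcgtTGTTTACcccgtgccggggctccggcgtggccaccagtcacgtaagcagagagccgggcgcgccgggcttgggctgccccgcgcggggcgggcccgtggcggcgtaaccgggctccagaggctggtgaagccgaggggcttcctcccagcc
MXI1, start 3: ccgtgctcgcggggagagGTAAACAaacca
MXD4: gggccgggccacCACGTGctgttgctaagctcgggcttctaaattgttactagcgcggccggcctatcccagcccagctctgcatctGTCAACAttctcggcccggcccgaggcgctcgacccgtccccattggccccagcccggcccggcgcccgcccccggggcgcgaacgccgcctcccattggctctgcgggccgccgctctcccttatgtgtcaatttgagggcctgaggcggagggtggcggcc
MNT: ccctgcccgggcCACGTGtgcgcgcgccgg
MLX: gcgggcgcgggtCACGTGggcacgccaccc

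MXI1 nearly tripled with lapatinib whichever siRNA was present, and it encodes an antagonist known to rise in cells that stop dividing. Its normalized counts were 292.5, 303.4 and 256.9 in NT siRNA cells with DMSO against 753.7, 920.3 and 802.2 with lapatinib. FOXA1 siRNA cells had 291.7, 251.2 and 277.0 with DMSO, against 791.4, 787.0 and 841.3 with lapatinib. The 6 lapatinib libraries were all above the 6 DMSO libraries, with the siRNA groups overlapping inside each drug. The rise was 1.56 on the log2 scale with NT siRNA (standard error 0.106, adjusted p = 9.74e-06) and 1.57 with FOXA1 siRNA (standard error 0.0815, adjusted p = 4.22e-06). The difference between those responses was 0.02 (95% confidence interval -0.26 to 0.31, adjusted p = 0.955). FOXA1 siRNA itself gave -0.04 in DMSO (95% confidence interval -0.29 to 0.20) and -0.04 in lapatinib (95% confidence interval -0.23 to 0.15).

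MXD1, the founding antagonist of the family, was raised by lapatinib and by FOXA1 siRNA, and the increase with each was smaller in the presence of the other. Normalized counts of MXD1 were 473.8, 411.5 and 483.1 in NT siRNA cells with DMSO, and 778.6, 802.1 and 749.9 with lapatinib. They were 758.3, 668.9 and 739.5 in FOXA1 siRNA cells with DMSO, and 929.8, 917.7 and 912.9 with lapatinib. The NT siRNA libraries with DMSO were the lowest and the FOXA1 siRNA libraries with lapatinib the highest, with no overlap to the other groups. Lapatinib raised MXD1 by 0.79 on the log2 scale with NT siRNA (standard error 0.0819) and by 0.36 with FOXA1 siRNA (standard error 0.0666, adjusted p = 7.24e-05 and 0.00198). With FOXA1 siRNA the rise was 0.68 in DMSO (standard error 0.0844) and 0.24 under the drug (standard error 0.0576), with adjusted p = 0.000529 and 0.011. The interaction was -0.42 (standard error 0.102, adjusted p = 0.0291). Its adjusted p was 0.0065 when blocking on replicate number, 0.00523 by DESeq2 and 0.0108 without replicate 2 of every group. Leaving out NT siRNA replicate 1 (with DMSO or with lapatinib), FOXA1 siRNA with DMSO replicate 1 or 3, or any 1 of the 3 FOXA1 siRNA replicates with lapatinib gave an interaction of -0.45 to -0.38 with an adjusted p of 0.0509 to 0.0753.

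MXD3 was the antagonist that fell with lapatinib, and it is known to be expressed in cells in S phase, unlike the other antagonists. Its normalized counts were 521.1, 422.4 and 487.9 in NT siRNA cells with DMSO, and 186.6, 290.2 and 214.4 with lapatinib. With FOXA1 siRNA they were 401.7, 269.8 and 342.6 with DMSO, and 188.0, 227.8 and 209.8 with lapatinib. Replicate 2 was the lowest of its group in both DMSO groups and the highest in both lapatinib groups. MXD3 fell to 0.492 of the DMSO level with NT siRNA (log2 fold change -1.02, standard error 0.16, adjusted p = 0.000711) and to 0.621 of it with FOXA1 siRNA (log2 fold change -0.69, standard error 0.155, adjusted p = 0.00537). Without replicate 2 of every group the log2 fold changes were -1.32 and -0.90. FOXA1 siRNA lowered MXD3 in DMSO (log2 fold change -0.49, standard error 0.145, adjusted p = 0.0283), but not past the threshold without NT siRNA, DMSO replicate 1 or 3 or FOXA1 siRNA, DMSO replicate 3 (-0.50 to -0.42, adjusted p = 0.0736 to 0.0963). The adjusted p was 0.000234 when blocking on replicate number and 0.0034 without replicate 2 of every group. In lapatinib the FOXA1 siRNA groups overlapped with NT siRNA (log2 fold change -0.15, adjusted p = 0.488).

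MXD4, an antagonist first described in differentiated cells, rose 1.49-fold with lapatinib in NT siRNA cells. Its normalized counts went from 501.4, 465.0 and 488.9 with DMSO to 682.4, 753.4 and 704.8 with lapatinib (log2 fold change 0.58, standard error 0.0737, adjusted p = 0.000226). In FOXA1 siRNA cells they were 508.6, 480.1 and 547.2 with DMSO and 598.2, 622.7 and 580.3 with lapatinib, without overlap (log2 fold change 0.24, standard error 0.0766, adjusted p = 0.0266). That smaller increase was not called without replicate 2 of every group (0.16, adjusted p = 0.0881), nor without any 1 of FOXA1 siRNA replicates 1 and 2 in either drug (0.19 to 0.25, adjusted p = 0.0542 to 0.0753). The interaction was -0.33 (standard error 0.0991, adjusted p = 0.0679), and it was called when blocking on replicate number (adjusted p = 0.0312), by DESeq2 (0.0424) and without replicate 2 (0.0355). In lapatinib, FOXA1 siRNA lowered MXD4 by 0.26 on the log2 scale (standard error 0.0678, adjusted p = 0.0155), a call lost without FOXA1 siRNA, lapatinib replicate 1 (-0.26, adjusted p = 0.0513) or 3 (-0.23, adjusted p = 0.0637).

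MNT, an antagonist present in both dividing and resting cells, showed the smallest rise of the 4 antagonists that rose in NT siRNA cells. Its normalized counts were 701.3, 797.2 and 760.2 with DMSO, and 825.0, 1090 and 847.4 with lapatinib (log2 fold change 0.31, standard error 0.114, adjusted p = 0.043). They were 632.5, 722.9 and 655.7 with DMSO in FOXA1 siRNA cells, and 800.7, 1009 and 819.8 with lapatinib (log2 fold change 0.40, standard error 0.101, adjusted p = 0.00976). Replicate 2 had the most MNT in each of the 4 groups. The call in NT siRNA cells had an adjusted p of 0.0513 with RLE normalization, 0.0531 with upper-quartile scaling, 0.0626 with no count filter, 0.0524 with 10 counts required in every sample, and 0.0551 to 0.138 without any 1 of the 3 NT siRNA, DMSO replicates or without NT siRNA, lapatinib replicate 2 (log2 fold change 0.18 to 0.34), but 0.0057 when blocking on replicate number and 0.0226 without replicate 2 of every group (log2 fold change 0.20). FOXA1 siRNA gave a log2 fold change of -0.15 in DMSO (adjusted p = 0.168, and 0.0253 with the block) and -0.08 in lapatinib (adjusted p = 0.646).

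MLX and MLXIP, which form their own dimer, moved apart under lapatinib. MLXIP had normalized counts of 1690, 1708 and 1693 in NT siRNA cells with DMSO and 2206, 2286 and 2348 with lapatinib. With FOXA1 siRNA it had 1864, 1727 and 1719 with DMSO and 2338, 2347 and 2286 with lapatinib. The drug groups were separate under both siRNAs, with log2 fold changes of 0.45 (standard error 0.0512, adjusted p = 0.000125) and 0.40 (standard error 0.0506, adjusted p = 0.000247), and FOXA1 siRNA changed MLXIP by 0.07 in DMSO and 0.02 in lapatinib (adjusted p = 0.279 and 0.759). MLX had normalized counts of 1118, 1117 and 1039 in NT siRNA cells with DMSO and 842.8, 940.2 and 833.0 with lapatinib (log2 fold change -0.30, standard error 0.0733, adjusted p = 0.00727). In FOXA1 siRNA cells MLX overlapped between drugs, at 1154, 1250 and 1170 with DMSO and 1193, 1101 and 1005 with lapatinib (log2 fold change -0.11, 95% confidence interval -0.27 to 0.06, adjusted p = 0.237). FOXA1 siRNA raised MLX in lapatinib (log2 fold change 0.33, standard error 0.0815, adjusted p = 0.0122, but 0.26 and 0.0572 without FOXA1 siRNA, lapatinib replicate 1). In DMSO the change was 0.14 (adjusted p = 0.107, and 0.0271 when blocking on replicate number).

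Counted over the network, lapatinib changed all 9 members in NT siRNA cells, 6 higher and 3 lower, where 30.5% of the 13713 genes tested were called higher and 29.2% lower. In FOXA1 siRNA cells 7 members were called, 6 higher and 1 lower, where 29.0% of 13745 genes were called higher and 29.1% lower. FOXA1 siRNA changed 4 members in DMSO (2 higher, 2 lower, against 21.9% and 21.3% of 13694 genes) and 5 in lapatinib (3 higher, 2 lower, against 22.7% and 22.2% of 13727 genes). The interaction was called for MYC (higher) and MXD1 (lower), where 3.99% of 14012 genes were called higher and 3.20% lower. Without replicate 2 of every group the counts were 9, 6, 4, 5 and 3. Most changes were modest: when a log2 fold change of 1 or more in either direction was also required, MXI1 and MXD3 remained for lapatinib in NT siRNA cells (13.8% of all genes), MXI1 in FOXA1 siRNA cells (10.1%), no member for FOXA1 siRNA in DMSO (6.84%) and MYC in lapatinib (8.41%). The median log2 fold change of the 9 members was 0.42 and 0.36 for lapatinib and 0.07 and -0.04 for FOXA1 siRNA, beside 0.03, 0.01, -0.01 and -0.01 over all genes tested.

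**Figure D2:**
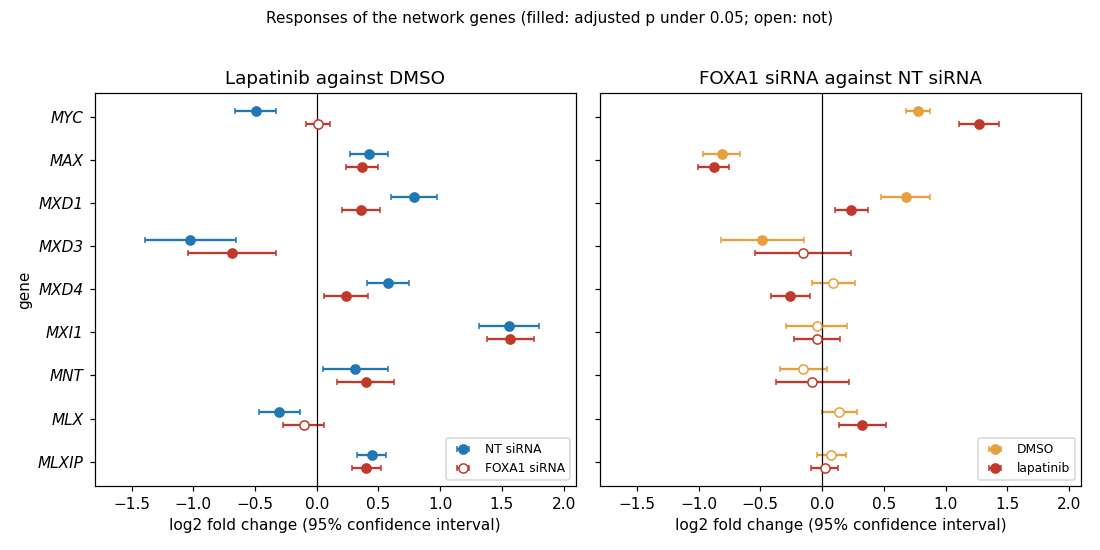
Log2 fold changes (x axis) with 95% confidence intervals for the 9 genes (y axis), for lapatinib against DMSO (left, by siRNA) and FOXA1 siRNA against NT siRNA (right, by drug), with filled points for an adjusted p under 0.05. MXI1 lay at 1.56 and 1.57 on the left, MYC at -0.50 and 0.01, and on the right MYC and MAX lay on opposite sides of 0.

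Compared per length, the order of the levels in NT siRNA cells with DMSO was MYC (168.2 ± 7.24 TPM, SD, n = 3), MAX (66.1 ± 3.94), MLX (28.9 ± 1.56), MLXIP (23.6 ± 0.552), MXD3 (14.6 ± 1.25), MNT (9.67 ± 0.857), MXD4 (8.14 ± 0.278), MXI1 (5.57 ± 0.53) and MXD1 (5.05 ± 0.342). Only the last neighbors, MXI1 and MXD1, overlapped between replicates. MXD3 was the most abundant antagonist there and the least abundant in both lapatinib groups (6.97 ± 2.28 TPM with NT siRNA, where it overlapped MXD1, and 6.0 ± 0.835 with FOXA1 siRNA). MXI1 went the other way, from 5.57 and 5.43 TPM in the DMSO groups to the top of the antagonists with lapatinib, at 16.0 ± 1.84 TPM with NT siRNA and 15.6 ± 0.517 with FOXA1 siRNA. With FOXA1 siRNA and DMSO, MXD3, MXD4, MNT and MXD1 lay between 7.52 and 11.64 TPM, each overlapping the next.

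The summed TPM of the 9 genes was 295.2 to 335.2 in the NT siRNA libraries and 417.0 to 456.5 in the FOXA1 siRNA libraries, with the drugs overlapping under each siRNA, and the share of MYC in it differed between the groups. MYC made up 51.0% of the summed TPM in NT siRNA cells with DMSO (50.1 to 52.4), 37.4% with lapatinib (35.0 to 39.3), 68.1% in FOXA1 siRNA cells with DMSO (67.0 to 68.8) and 63.7% with lapatinib (63.4 to 64.0). The summed antagonists were at 43.0 ± 0.567 and 41.0 ± 2.41 TPM in the DMSO groups (NT siRNA, FOXA1 siRNA) and at 55.1 ± 7.07 and 53.2 ± 2.19 TPM in the lapatinib groups. MYC per antagonist was 3.73, 4.15 and 3.86 in NT siRNA cells with DMSO, and 2.28, 2.07 and 1.99 with lapatinib. It was 6.53, 7.51 and 7.14 in FOXA1 siRNA cells with DMSO, and 5.46, 5.21 and 5.29 with lapatinib, and the 4 groups did not overlap. MAX per summed TPM of MYC and the antagonists was 0.313 and 0.507 with NT siRNA (DMSO, lapatinib), and 0.113 and 0.143 with FOXA1 siRNA. MGA, another MAX partner described below, was left out of that sum. These ratios are mRNA levels and not protein levels, and are given as a description with no test.

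**Figure D3:**
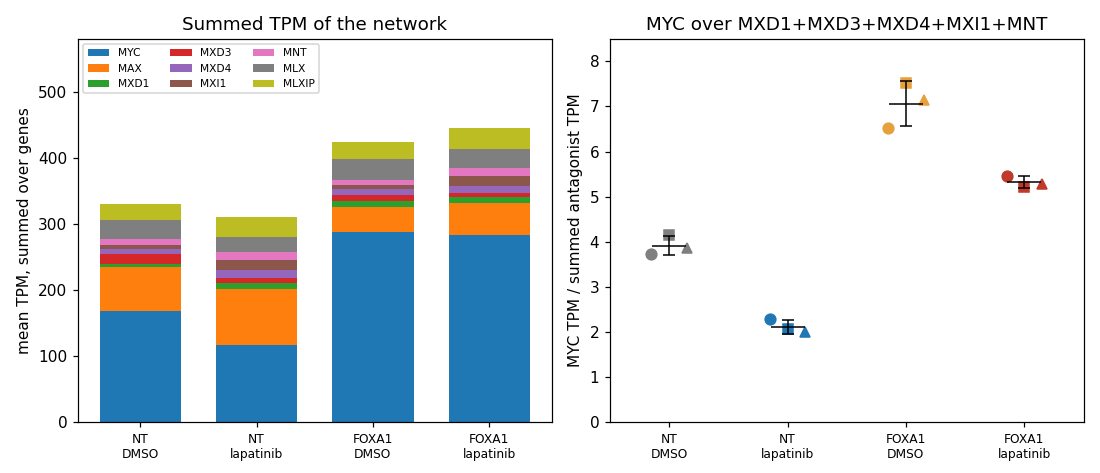
Left, mean TPM of the 9 genes stacked by group (y axis, TPM); right, MYC TPM over the summed TPM of the 5 antagonists for each replicate (circle, square and triangle for replicates 1, 2 and 3), with the mean and SD of 3. The ratio ran from 1.99 in NT siRNA cells with lapatinib to 7.51 in FOXA1 siRNA cells with DMSO.

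Of the other genes of the family, 1 was called in 1 comparison. MYCN was at no more than 0.13 TPM and was below the count filter in all comparisons. MGA, a MAX partner with an additional T-box, and MLXIPL (ChREBP), the relative of MLXIP, were called in no comparison, with log2 fold changes of 0.03 to 0.22 for MGA and -0.44 to -0.17 for MLXIPL. When blocking on replicate number, MGA was called higher with lapatinib in FOXA1 siRNA cells (adjusted p = 0.000834) and with FOXA1 siRNA in lapatinib (0.0067), and MLXIPL was called lower with lapatinib in NT siRNA cells (0.0279) and with FOXA1 siRNA in DMSO (0.00068) and in lapatinib (0.00468). MYCL1 was lower with FOXA1 siRNA in lapatinib (log2 fold change -0.61, adjusted p = 0.0161), at 58.89, 74.0 and 59.36 normalized counts against 102.2, 103.4 and 87.2, and that call held in 3 of the 6 fits that left out 1 library. With lapatinib in NT siRNA cells MYCL1 had a log2 fold change of 0.67 (adjusted p = 0.0585, and 0.0192 with the block).

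Of 34 genes known to be activated by MYC, 33 were tested (CCND2 was not), and lapatinib lowered most of them, less so after FOXA1 siRNA. This list and those below were chosen with earlier results of these data known, so their counts are not independent of the data. In NT siRNA cells 29 of 33 were called lower and 0 higher, beside 29.2% and 30.5% of all genes (30 lower and 1 higher without replicate 2, and 29 and 1 with the block), with a median log2 fold change of -0.71. In FOXA1 siRNA cells 26 were called lower and 3 higher, beside 29.1% and 29.0% of all genes (28 and 2 without replicate 2), with a median of -0.37. ODC1, the rate-limiting enzyme of polyamine synthesis, fell from 4777, 4679 and 4248 normalized counts to 1064, 1124 and 934.6 in NT siRNA cells, and from 4130, 3907 and 3692 to 1650, 1682 and 1580 in FOXA1 siRNA cells. On the log2 scale it fell by 2.11 with NT siRNA (standard error 0.0827) and by 1.25 with FOXA1 siRNA (standard error 0.0554), responses that differed by 0.88 (standard error 0.1, adjusted p = 0.000635). NCL, the nucleolar protein nucleolin, fell by 0.62 and by 0.30 on the log2 scale, with an interaction of 0.33 (adjusted p = 0.0146). E2F1 and CDC25A, cell cycle genes that are also targets of E2F factors, fell furthest, with log2 fold changes of -3.80 and -2.73 with NT siRNA and of -3.01 and -2.43 with FOXA1 siRNA. TFAP4 (log2 fold change 0.43) and APEX1 (0.37) were the genes with the largest rise in FOXA1 siRNA cells.

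The interaction was called higher for 18 of these 33 genes and lower for 0, beside 3.99% and 3.20% of all genes, with a median of 0.34 beside 0.01 over all genes, and the log2 value was above 0 in 32 of 33, GNL3 being the exception. When blocking on replicate number, 29 were called higher and 1 lower, and without replicate 2 the counts were 28 and 1. The shares of all genes in those fits are not given, so these larger counts cannot be set beside them. The share of all genes is not matched for a fall with lapatinib. Over all genes, lapatinib changes of at least 1 on the log2 scale were called for 13.8% with NT siRNA and 10.1% with FOXA1 siRNA. Whether the interaction is particular to these 33 genes was not tested. BOP1, a ribosome biogenesis factor, had the largest interaction (1.09, standard error 0.251, adjusted p = 0.0224), with 2795, 2468 and 1638 normalized counts in NT siRNA cells with DMSO and 865.4, 759.3 and 1009 with lapatinib, against 2175, 1717 and 2261 and then 1886, 1516 and 1612 in FOXA1 siRNA cells. BOP1 met the threshold for the interaction in 9 of the 12 fits that left out 1 library. Its expected counts were fractional in every library, which is a sign of reads shared with other genes. In DMSO, where FOXA1 siRNA raised MYC 1.71-fold, 7 of the 33 genes were called higher and 7 lower, which is 21.2% each way and about the share of all genes, 21.9% and 21.3% (6 and 11 without replicate 2, 10 and 10 with the block), with a median of -0.02, and ODC1 was lower (log2 fold change -0.21, adjusted p = 0.0249, held in 3 of 6 fits without 1 library). The largest changes there were WDR43 (0.45) and POLR1B (0.38) among those higher and RRP12 (-0.77) and CDC25A (-0.76) among those lower. In lapatinib, FOXA1 siRNA gave 24 higher and 3 lower, beside 22.7% and 22.2% of all genes (24 and 3 also without replicate 2), with a median of 0.33. DKC1, the pseudouridine synthase dyskerin, was among the largest of these, at 2225, 2194 and 1909 normalized counts with NT siRNA and 4055, 4155 and 3877 with FOXA1 siRNA (log2 fold change 0.93, standard error 0.0683, adjusted p = 3.05e-05).

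**Figure D4:**
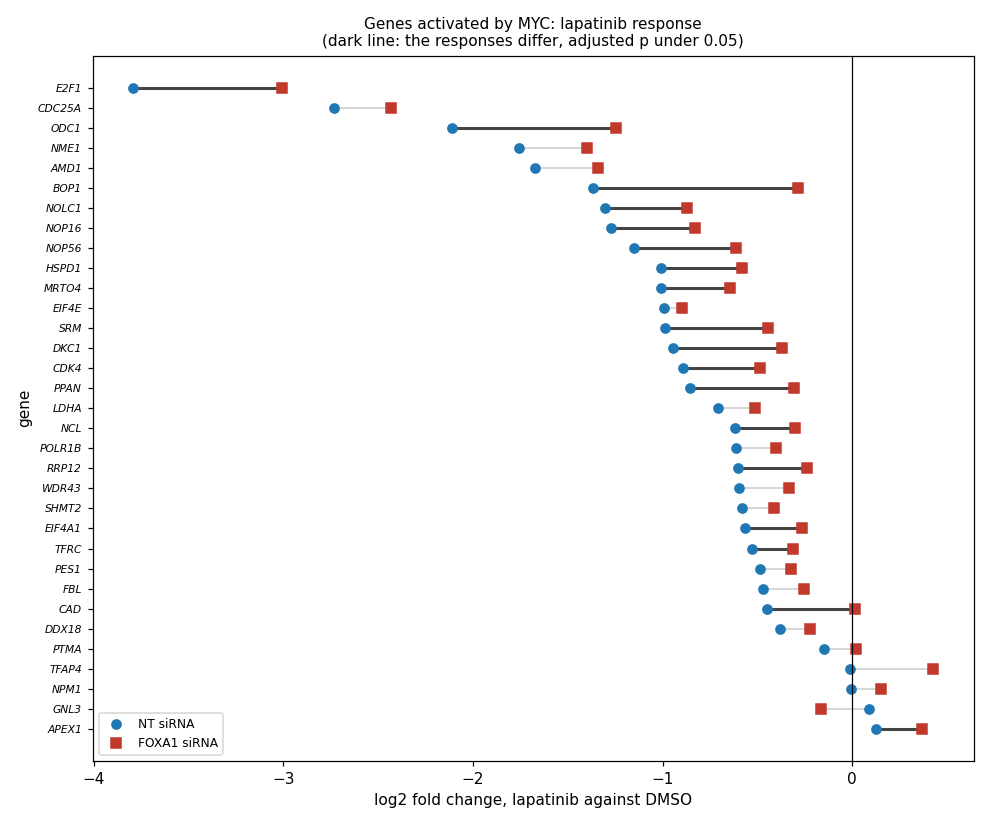
Log2 fold change for lapatinib against DMSO (x axis) of the 33 tested genes activated by MYC (y axis), with NT siRNA as blue circles and FOXA1 siRNA as red squares joined by a line that is dark where the interaction had an adjusted p under 0.05. The square lay to the right of the circle for all genes but GNL3, and 18 lines are dark.

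Of the genes known to be repressed by MYC, 8 of 10 were tested for lapatinib in NT siRNA cells and 9 in the other comparisons. Lapatinib raised 5 of 8 and lowered 0 in NT siRNA cells, beside 30.5% and 29.2% of all genes (DDIT3, a stress-induced factor, by 0.96 and THBS1, an angiogenesis inhibitor, by 0.83), and it raised 6 of 9 and lowered 1 in FOXA1 siRNA cells, beside 29.0% and 29.1% (GADD45A by 0.91, DDIT3 by 0.83, NDRG1 -0.17). The CDK inhibitor CDKN1A was not called with lapatinib (log2 fold changes 0.17 and -0.19, adjusted p = 0.493 and 0.268). FOXA1 siRNA raised 2 and lowered 4 of 9 in DMSO, beside 21.9% and 21.3% of all genes, and raised 2 and lowered 3 in lapatinib, beside 22.7% and 22.2% (3 and 4 in both drugs without replicate 2). The share raised in DMSO was near that of all genes. CDKN1A was higher with FOXA1 siRNA in DMSO (0.62, adjusted p = 0.0306, held in 2 of 6 fits without 1 library) and had 0.25 in lapatinib (adjusted p = 0.207). NDRG1, a stress-response gene, was lower in both (-1.21 and -1.32), at 8027 to 10400 normalized counts in FOXA1 siRNA libraries and 15870 to 23680 in NT siRNA libraries. The interaction was called for 0 of 9 by edgeR (3 at an unadjusted p under 0.05), beside 3.99% higher and 3.20% lower of all genes, and for 0 by DESeq2. It was called for 1 higher and 1 lower when blocking on replicate number in edgeR and 1 higher without replicate 2.

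The genes that MLXIP and MLX are known to activate (4 tested) rose with lapatinib in NT siRNA cells, and FOXA1 siRNA changed the response of the pair best known for it. Lapatinib raised 4 of 4 with NT siRNA and 3 of 4 with FOXA1 siRNA, beside 30.5% and 29.0% of all genes. The interaction was called lower for 2 of 4 and higher for 0, beside 3.20% and 3.99% of all genes. TXNIP, an inhibitor of thioredoxin and of glucose uptake, had 1904, 2375 and 1862 normalized counts in NT siRNA cells with DMSO and 11950, 12160 and 12670 with lapatinib. FOXA1 siRNA cells had 3098, 3042 and 3024 with DMSO and 10410, 11850 and 10830 with lapatinib. The log2 fold changes, 2.60 (standard error 0.0992) and 1.86 (standard error 0.0549), differed by -0.73 (standard error 0.112, adjusted p = 0.00326). FOXA1 siRNA raised TXNIP in DMSO (0.59, adjusted p = 0.00171), and in lapatinib it gave -0.16 (adjusted p = 0.0486, held in 1 of 6 fits without 1 library). ARRDC4, an arrestin of the same family, had 250.2, 300.4 and 323.0 normalized counts in NT siRNA cells with DMSO and 433.9, 413.5 and 539.6 with lapatinib (log2 fold change 0.69, adjusted p = 0.00274). With FOXA1 siRNA it was at 582.5, 663.4 and 691.9 with DMSO and 639.5, 577.5 and 692.9 with lapatinib (log2 fold change -0.01, adjusted p = 0.911). Its interaction was -0.69 (adjusted p = 0.0336, held in 5 of 12 fits without 1 library). The glycolytic genes HK2 and PFKFB3 rose with lapatinib under both siRNAs (0.25 and 0.57 with NT siRNA, 0.22 and 0.33 with FOXA1 siRNA, the NT siRNA calls held in 3 and 4 of 6 fits without 1 library and the FOXA1 siRNA calls in 6 and 3), and HK2 was lower with FOXA1 siRNA in DMSO (-0.30) and in lapatinib (-0.33).

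Among 9 cofactors of MYC, lapatinib raised 1 and lowered 5 with each siRNA (median log2 fold changes -0.29 and -0.21). Of all genes, 30.5% were called higher and 29.2% lower with NT siRNA, and 29.0% and 29.1% with FOXA1 siRNA. With the block lapatinib lowered 6 with each siRNA. Without replicate 2 it lowered 7 with NT siRNA and 4 with FOXA1 siRNA. RUVBL1 and RUVBL2, helicases of the TIP60 and INO80 complexes, fell furthest, by 0.90 and 0.87 on the log2 scale with NT siRNA and by 0.61 and 0.62 with FOXA1 siRNA, and the acetyltransferase gene KAT5 was the one that rose (0.36 and 0.24). The interaction, called higher for 3.99% and lower for 3.20% of all genes, was called higher for RUVBL1 only (0.31, adjusted p = 0.0365, held in 4 of 12 fits without 1 library), for 3 of 9 with the block and for 4 of 9 without replicate 2. RUVBL1 also had fractional expected counts in every library. FOXA1 siRNA lowered 3 and raised 0 in DMSO, beside 21.3% and 21.9% of all genes (raising 2 and lowering 3 with the block and without replicate 2), among them ZBTB17 (MIZ1, through which MYC represses, -0.48) and WDR5 (-0.39), and it raised 3 and lowered 2 in lapatinib, beside 22.7% and 22.2%. Of 5 corepressor genes used by the antagonists, SIN3A rose (0.22 and 0.36) and HDAC2 (-0.42 and -0.29) and SIN3B (-0.16 and -0.21) fell with lapatinib under both siRNAs. NCOR1 rose with lapatinib in NT siRNA cells (0.41). The interaction was called lower for NCOR1 (-0.31, adjusted p = 0.0327) and HDAC1 (-0.24, adjusted p = 0.0171) and higher for 0 of 5 (1 with the block), beside 3.20% and 3.99% of all genes.

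Of 14 genes for MYC protein turnover, lapatinib raised 4 and lowered 6 in NT siRNA cells and raised 2 and lowered 5 in FOXA1 siRNA cells (4 and 7, and 2 and 7, without replicate 2, and 4 and 8, and 3 and 6, with the block). Of all genes 30.5% and 29.2% were called in NT siRNA cells, close to the share of the 14 that rose, and 29.0% and 29.1% in FOXA1 siRNA cells. FBXO32 (atrogin-1), a ubiquitin ligase subunit and a known FOXO target, rose from 1007, 1169 and 892.4 normalized counts to 8886, 11160 and 9180 in NT siRNA cells, and from 2375, 1957 and 2016 to 10090, 11200 and 10560 in FOXA1 siRNA cells. Its log2 fold changes were 3.27 (standard error 0.125) and 2.34 (standard error 0.08), with an interaction of -0.92 (standard error 0.153, adjusted p = 0.00457). KIAA1524 (CIP2A), which protects MYC from dephosphorylation, fell by 1.76 and by 1.27, and AURKA, a mitotic kinase that also stabilizes MYC proteins, fell by 1.19 and by 0.78. PPP2R5A, a subunit of PP2A, the phosphatase that CIP2A inhibits, rose by 0.41 and 0.29. FOXA1 siRNA raised 3 and lowered 3 of 14 in DMSO, about the share of all genes, 21.9% and 21.3% (7 and 7 with the block, 4 and 6 without replicate 2) and raised 3 and lowered 3 in lapatinib, beside 22.7% and 22.2% (6 and 5 with the block, 4 and 5 without replicate 2). The nucleolar MYC deubiquitinase USP36 was higher in both (0.74 and 0.85), and USP37, another deubiquitinase, was lower in both (-0.92 and -0.68). The interaction was called lower for FBXO32 and GSK3B (-0.23) and higher for 0 of 14, beside 3.20% and 3.99% of all genes. With the block it was called higher for 3 and lower for 3, and without replicate 2 for 4 and 3.

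The genes whose log2 normalized counts followed each member most closely over the 12 libraries were found by Pearson correlation among 10805 genes with a mean normalized count of at least 100. These values are a description, since the libraries fall into 4 groups and share their composition. MYC was closest to ITGB1 (0.992), ATP11A (0.990), PRKAG2 (0.989), MAL2 (0.986) and LMO1 (0.985). MAX was closest to RAD17 (0.995) and CHMP2B (0.994), and MXI1 to PLEKHA6 and ITPKC (both 0.996). MXD3 was closest to ORC1L (0.976), a subunit of the origin recognition complex, and to LOC643387 (0.974). For MXD1 the closest were USP25 (0.984) and TMEM30A (0.983), for MXD4 KIAA0232 (0.971) and CDK13 (0.97), and for MNT FAM102A (0.971) and PLEKHG1 (0.963). MLX was closest to ID3 (0.958) and TTLL4 (0.951), and MLXIP to RFX3 and KDM3B (both 0.991).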

How the data were processed

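RNAseq of 12 SKBR-3 samples (4 groups of 3) was analysed. Per the labels and the study's methods, RNA was made into libraries with a KAPA stranded kit (another label names a TruSeq kit), and the siRNA time before drug is 48 h in the labels and 24 h in the methods. The authors deposited, for each sample, RSEM expected counts per gene (unit: estimated counts, not normalized, and not whole for genes that share reads) and TPM values (which summed to 896833 to 939340 per sample), and the deposited FPKM and the authors' normalized signal (expected counts scaled to the upper quartile of the library) were not used here. The submitters' processing notes name R 3.2.2 and DESeq2 1.12.3. The methods name STAR and hg38, but also Salmon, so the quantifier is not certain.

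Expected counts were rounded to whole numbers (87.5% to 88.1% were whole), and a gene was kept where 1 sample or more of the comparison had 10 counts. Each comparison used its own 6 samples in edgeR 4.0.16 (R 4.3.3) with TMM normalization and the quasi-likelihood test, and the interaction used all 12. P-values were adjusted by Benjamini-Hochberg over all genes tested, with calls at 0.05. Normalized counts are counts scaled to TMM library sizes. No replicate block was used in the main fit. Same-numbered samples deviated together (18 pairs, correlation of deviations from group means 0.259 to 0.695 over 10812 genes), so the numbers from the labels pair the samples. The mean was -0.196 for 36 pairs of different numbers. Deviations cancel within each group, so that negative mean largely follows from the positive correlations and adds no separate support. The standard errors, intervals and adjusted p-values of the main fit leave out this pairing. Depth sets the precision of low genes, since a few counts vary by chance.

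The members and gene lists were chosen with earlier results of these data known. All 9 members were named in every comparison, with, from each further list, the called genes of largest change in each direction (up to 2), and TXNIP, ARRDC4, ODC1, NCL and CDKN1A. RLE and upper-quartile scaling, DESeq2 1.42.0, other count filters, stricter thresholds, the replicate block, 1 model of all 12 samples and leaving out each library were tried, and leaving out replicate 2 of every group was added after seeing the data. The fitting code was checked on simulated data. Sequences and gene positions came from RefSeq (GRCh38.p14), matched by Entrez number. Python 3 with pandas and matplotlib drew the figures.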

Additional observations from a re-analysis of the deposited data

Results flagged for a closer look

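The lapatinib response differed between the siRNAs for 2 of the 9 members by the interaction term in edgeR (quasi-likelihood test, Benjamini-Hochberg). Of all 14012 genes tested, 3.99% were called higher and 3.20% lower. For MYC the difference (FOXA1 siRNA minus NT siRNA) was 0.52 on the log2 scale (adjusted p = 0.00457), with all 3 NT siRNA libraries lower in lapatinib than any in DMSO. For MXD1 it was -0.42 (adjusted p = 0.0291), with MXD1 higher in lapatinib in 3 of 3 libraries under both siRNAs. The MXD1 difference was called in 5 of the 12 fits that left out 1 library, and the MYC difference in all 12. Both were called without replicate 2 of every group (0.57 for MYC, -0.38 for MXD1).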

How the results depend on the processing

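Across the alternatives no member changed direction where it was called. Requiring a log2 fold change of 1 or more in either direction left 2 and 1 of the members called for lapatinib (NT siRNA, FOXA1 siRNA), in place of 9 and 7, and 0 and 1 for FOXA1 siRNA (DMSO, lapatinib), in place of 4 and 5. The shares of all genes under that rule were 13.8%, 10.1%, 6.84% and 8.41%. For the other alternatives no share of all genes is given. An adjusted p under 0.01 left 2 of 5 for FOXA1 siRNA in lapatinib and 1 of 2 for the interaction. Leaving out 1 library at a time gave 8 to 9, 6 to 7, 3 to 4 and 3 to 5 members called in those 4 comparisons and 1 to 2 for the interaction. The count of 3 was without FOXA1 siRNA, lapatinib replicate 1, and the interaction was down to 1 without NT siRNA replicate 1 in either drug, FOXA1 siRNA, DMSO replicate 1 or 3, or any FOXA1 siRNA, lapatinib replicate. When blocking on replicate number, the counts of members called were 9, 7, 6, 5 and 3. The block added MNT and MLX for FOXA1 siRNA in DMSO and MXD4 for the interaction, and changed no other call of a member. Without replicate 2 of every group, an alternative chosen after seeing the data, the counts were 9, 6, 4, 5 and 3. Where the calls on MNT, MXD3, MXD4 and MLX depended on 1 library, the cause was not tested. RLE normalization, upper-quartile scaling, DESeq2, both filters and 1 model of all 12 samples kept each count within 1.5 times, though MNT with lapatinib in NT siRNA cells was not called under RLE, upper-quartile scaling or either filter (adjusted p = 0.0513, 0.0531, 0.0626 and 0.0524). MXD3, with 157.39 to 529.15 expected counts, had the widest interval of the 9 members in each comparison.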
